A study of Mus musculus with 12 samples.

Results

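The genes described here make reactive oxygen and nitrogen species in the gut wall or protect its cells from them: 10 of the 54532 genes measured in mouse small intestine, chosen by name. Duox2, Duoxa2, Nox1 and Nos2 serve oxidant production, and Hmox1, Nqo1, Gpx2, Gclc, Sod2 and Srxn1 serve antioxidant defence. Each name stood on 1 row in both deposited tables, all protein-coding, and coordinates are those of the files (mouse, GRCm38). The tissue came from C57BL/6J mice in 4 groups of 3 libraries each. CKO NEC mice carry a knockout of Piezo1, a mechanically gated cation channel, in intestinal epithelial cells (IEC) and had NEC, necrotizing enterocolitis, a disease of newborns in which the inflamed bowel wall dies. Flox NEC mice had NEC and carry the floxed allele without the knockout. CKO control and flox control mice have the same 2 genotypes without NEC. Age, the method of NEC induction and the Cre driver are not given here. Whether each library is a different mouse is not labelled, so p-values measure the spread between libraries, which may be technical.

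Oxidants in the gut epithelium come largely from membrane oxidases. A dual oxidase sits at the apical surface and releases hydrogen peroxide toward microbes in the lumen, while nitric oxide synthase makes nitric oxide during inflammation. Cells remove peroxides with glutathione, peroxiredoxins and glutathione peroxidases, and the transcription factor NRF2 (Nfe2l2), held in check by KEAP1, switches on many of the genes for that defence through a DNA element called the antioxidant response element (ARE).

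The libraries held 13057724 to 16821130 reads, recovered from the deposited FPKM (fragments per kilobase of gene length, scaled to library size). The NEC and control tables were scaled separately, so levels here are FPKM rebuilt from those reads on a joint scale for all 12 libraries unless named as deposited. NEC and control libraries were separate along the leading principal component (59.4% of variance). Piezo1, the targeted gene, ranged over 3.23 to 5.58 deposited FPKM in CKO NEC and 6.76 to 7.38 in flox NEC, a difference that did not pass (log2 change of -0.53 ± 0.18 SE, limma adjusted p = 0.840). In control tissue it ranged over 0.926 to 1.71 deposited FPKM in CKO and 1.09 to 1.44 in flox, with a log2 change of -0.065 ± 0.19 SE (adjusted p = 0.846). A loss of Piezo1 in whole tissue was thus not detected in uninjured libraries, where cells other than the epithelium also give reads, and the deleted part of the gene is not given. Epithelial markers were read in every group (12 of 12 genes above 0), and Hoxb13, a gene of the distal colon, was at 0 in all 12 libraries. The control libraries numbered 3 in each genotype stood apart from the other controls for most of the defence genes, and results that rest on them are given with and without them.

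The upstream sequences of 4 members are shown because their transcripts changed together in NEC (Duox2 and Duoxa2), because the ARE letters occur there (Srxn1) or because the gene is a textbook NRF2 target without those letters in this window (Nqo1). Each is the 250 bases before the start given by RefSeq on GRCm38.p6, 5′ to 3′ on the gene's strand. That start can differ from the deposited gene coordinates. Capitals mark matches to TGAGNNNGC.

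Duox2, chr2:122298228-122298477, minus strand: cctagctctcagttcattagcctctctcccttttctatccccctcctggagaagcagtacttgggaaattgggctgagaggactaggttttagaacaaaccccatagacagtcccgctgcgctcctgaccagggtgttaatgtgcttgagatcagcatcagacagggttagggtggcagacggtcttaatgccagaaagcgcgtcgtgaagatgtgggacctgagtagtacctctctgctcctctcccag
Duoxa2, chr2:122298650-122298899, plus strand: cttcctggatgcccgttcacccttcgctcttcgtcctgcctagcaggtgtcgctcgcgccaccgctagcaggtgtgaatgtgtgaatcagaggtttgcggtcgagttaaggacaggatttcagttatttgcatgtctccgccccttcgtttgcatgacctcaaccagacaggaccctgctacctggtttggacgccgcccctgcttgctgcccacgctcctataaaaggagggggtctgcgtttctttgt
Srxn1, chr2:152105274-152105523, plus strand: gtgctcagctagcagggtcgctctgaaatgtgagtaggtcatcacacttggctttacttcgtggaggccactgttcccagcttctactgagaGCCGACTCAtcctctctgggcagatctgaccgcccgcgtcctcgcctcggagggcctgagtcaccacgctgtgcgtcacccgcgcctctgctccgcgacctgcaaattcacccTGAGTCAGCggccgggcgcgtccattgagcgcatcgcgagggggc
Nqo1, chr8:107403206-107403455, minus strand: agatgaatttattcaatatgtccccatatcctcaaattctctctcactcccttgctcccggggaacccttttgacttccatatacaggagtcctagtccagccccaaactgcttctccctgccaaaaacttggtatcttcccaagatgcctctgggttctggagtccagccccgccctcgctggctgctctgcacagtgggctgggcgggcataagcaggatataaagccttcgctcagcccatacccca

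Promoters were listed for 7 of the 10 members (not for Nos2, Hmox1 and Gclc). Those of Nox1 (chrX:134111855-134112104) and Sod2 (chr17:13007589-13007838) lie inside the deposited spans of these genes. TGACNNNGC, the ARE core, was searched on both strands and matched in none of the 7. TGAGNNNGC, a looser form added after that search, matched only Srxn1: as TGAGTCAGC on the gene's strand at -45 to -37 from the start, and on the opposite strand at -158 to -150, where the gene's strand reads GCCGACTCA. The letters are common: 10.16% of 32851 promoters of the same length hold TGACNNNGC, 14.38% hold TGAGNNNGC and 23.01% hold either. A match is a run of letters, not a binding site. Duox2 and Duoxa2 lie head to head on chromosome 2. In the deposited coordinates 734 bases part the end of Duox2 (122298165) from the start of Duoxa2 (122298900), and the windows shown lie in that stretch. Another GRCm38 annotation (GENCODE M21) puts the end of Duox2 at 122298449, so most of the Duox2 window lies within the gene there.

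**Figure D1:**
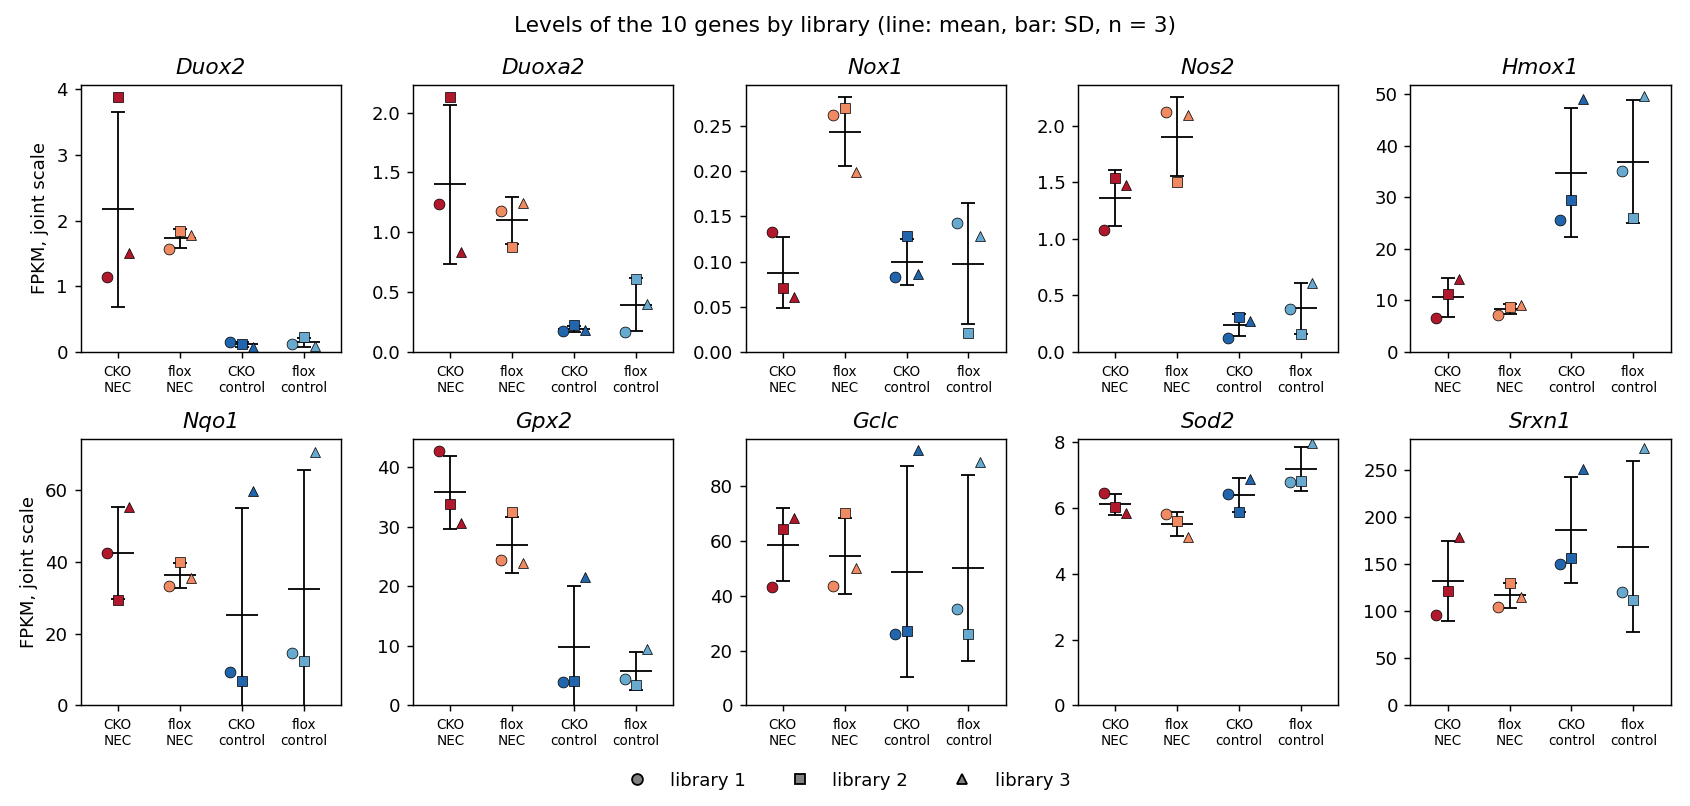
Level of each of the 10 genes (FPKM on the joint scale, linear axes from 0) in the 3 libraries of CKO NEC, flox NEC, CKO control and flox control tissue. Marker shape gives the library number, the line is the mean and the bar the SD. The NEC libraries sit above all control libraries for Duox2, Duoxa2, Nos2 and Gpx2 and below them for Hmox1, and the triangles of both control groups (library 3) stand high for Nqo1, Gclc, Gpx2, Hmox1 and Srxn1.

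NEC tissue held more transcripts of the peroxide-making pair Duox2 and Duoxa2 and of the nitric oxide synthase Nos2 than uninjured tissue, in both genotypes. Duox2 (ENSMUSG00000068452, chr2:122279247-122298165, minus strand), the dual oxidase itself, stood at 1.14, 3.88 and 1.51 FPKM in CKO NEC libraries, against 0.15, 0.122 and 0.0670 in CKO control libraries. It stood at 1.57, 1.84 and 1.78 FPKM in flox NEC libraries, against 0.116, 0.227 and 0.0887 in flox control libraries. All 6 NEC libraries lay above all 6 control libraries, and CKO NEC library 2 held the highest value of the series. The ratio of group means was 19.3 in CKO and 12 in flox tissue, from 703 against 31 reads and 508 against 40 reads. The change on the log2(FPKM + 1) scale was 1.42 ± 0.25 SE in CKO (adjusted p = 0.00126) and 1.25 ± 0.25 SE in flox (adjusted p = 0.00156, both limma over all genes tested with Benjamini-Hochberg adjustment, as for every adjusted p below). That scale understates the change of genes this low.

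Duoxa2 (ENSMUSG00000027225, chr2:122298900-122302885, plus strand), the maturation factor that carries Duox2 out of the endoplasmic reticulum, stood at 1.24, 2.13 and 0.834 FPKM in CKO NEC libraries, against 0.172, 0.223 and 0.18 in CKO control libraries. It stood at 1.18, 0.880 and 1.24 FPKM in flox NEC libraries, against 0.170, 0.610 and 0.401 in flox control libraries. Again no NEC library overlapped the controls of its genotype, with CKO NEC library 2 highest, as for Duox2. Duoxa2 rose by 0.98 ± 0.20 SE on the log2 scale in CKO (adjusted p = 0.00314) and by 0.60 ± 0.20 SE in flox (adjusted p = 0.0276). The flox call was lost without either of flox NEC libraries 1 and 3, without either of flox control libraries 1 and 3 (0.48 to 0.61, adjusted p of 0.0514 to 0.0987), and without both control libraries numbered 3 (adjusted p = 0.0595). Duoxa2 shares 695 bases with Duoxa1 on the opposite strand, which held at most 0.199 FPKM. The FPKM of Duox2 per FPKM of Duoxa2 was 0.919, 1.82 and 1.82 in CKO NEC libraries and 0.870, 0.547 and 0.373 in CKO control libraries. It was 1.33, 2.09 and 1.43 in flox NEC libraries and 0.684, 0.373 and 0.221 in flox control libraries. The ratio was thus higher in NEC libraries than in the controls of the same genotype, in CKO by a narrow gap (0.919 against 0.870). Each control value rests on 4 to 14 Duoxa2 reads and 6 to 21 Duox2 reads, and the ratio was not tested.

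Nos2 (ENSMUSG00000020826, chr11:78920787-78960254, plus strand), the inducible nitric oxide synthase, stood at 1.08, 1.54 and 1.47 FPKM in CKO NEC libraries, against 0.124, 0.306 and 0.276 in CKO control libraries. It stood at 2.12, 1.5 and 2.09 FPKM in flox NEC libraries, against 0.383, 0.157 and 0.611 in flox control libraries. The groups did not overlap in either genotype. Nos2 rose by 0.93 ± 0.17 SE in CKO (adjusted p = 0.00139) and by 1.08 ± 0.17 SE in flox (adjusted p = 0.000324), with ratios of means of 5.80 and 4.96. Duox2, Duoxa2 and Nos2 passed the filter on low values (at least 1 FPKM in at least 3 libraries) through the NEC libraries alone, so a difference between conditions was built into their being tested. In whole tissue, more cells of a type and more RNA per cell cannot be told apart. Macrophages also make Nos2 on activation, and the summed level of 12 macrophage markers was lower in NEC: 46.0 to 62.4 FPKM in CKO NEC against 112 to 133 in CKO control, and 57.0 to 69.0 in flox NEC against 120 to 138 in flox control. The sum followed its abundant genes, above all Csf1r (mean of 18.2 FPKM in CKO NEC against 69.4 in CKO control, and 20.9 in flox NEC against 69.9 in flox control), and the list as a whole was mixed. Of 9 macrophage markers tested, 2 rose and 3 fell in each genotype: Csf1r, Cd68 and C1qa fell in both, Cd163 rose in both, Cd14 rose in CKO and Mrc1 rose in flox. Cd163 and Cd14, the 2 that rose in CKO, reached 1 FPKM in NEC libraries alone. A difference between conditions was thus built into their being tested. The part of the macrophage markers in the rise of Nos2 was not tested.

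Nox1 (ENSMUSG00000031257, chrX:134086421-134221956, minus strand), the superoxide-making oxidase of the colon epithelium, was barely read and failed the filter in each comparison. It stood at 0.132, 0.0708 and 0.0602 FPKM in CKO NEC libraries and at 0.263, 0.269 and 0.200 in flox NEC libraries, which is 15 and 37 reads in all. CKO control libraries held 0.0827, 0.129 and 0.0865 FPKM and flox control libraries 0.143, 0.0210 and 0.129, or 14 reads in each group. The flox NEC libraries lay above the other 9. With the filter off, Nox1 rose in flox NEC against flox control by 0.18 ± 0.052 SE (adjusted p = 0.0256), while in CKO the change was -0.016 ± 0.052 SE (adjusted p = 0.928). The difference between those changes did not pass (-0.20 ± 0.073 SE, adjusted p = 0.298). Its span shares 399 bases with Cstf2 and holds Xkrx and Arl13a, and strand-aware counting is not stated, so these few reads are uncertain.

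The antioxidant genes did not move together in NEC: the peroxidase Gpx2 rose, the heme oxygenase Hmox1 fell, and the others gave smaller or less certain changes. Gpx2 (ENSMUSG00000042808, chr12:76792333-76795554, minus strand), the glutathione peroxidase of the gut epithelium, stood at 42.7, 33.9 and 30.7 FPKM in CKO NEC libraries, against 4.01, 4.05 and 21.6 in CKO control libraries. It stood at 24.4, 32.5 and 24.0 FPKM in flox NEC libraries, against 4.41, 3.44 and 9.51 in flox control libraries. The groups did not overlap, and library 3 was the highest of each control group. Gpx2 rose by 2.13 on the log2 scale in CKO (± 0.51 SE, adjusted p = 0.00614) and in flox (± 0.51 SE, adjusted p = 0.00431). Gpx2 lies whole within the span of Fntb, a gene on the opposite strand that held 3.96 to 7.60 FPKM, and its deposited length of 3222 bases equals its whole span.

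Hmox1 (ENSMUSG00000005413, chr8:75093621-75100589, plus strand), which breaks down heme and is a marker of oxidative stress and of heme-handling macrophages, stood at 6.54, 11.3 and 14.1 FPKM in CKO NEC libraries, against 25.7, 29.6 and 49.2 in CKO control libraries. It stood at 7.14, 8.69 and 9.04 FPKM in flox NEC libraries, against 35.1, 26.0 and 49.7 in flox control libraries. All 6 NEC libraries lay below all 6 control libraries. Hmox1 fell by 1.63 ± 0.30 SE on the log2 scale in CKO (adjusted p = 0.00166) and by 1.99 ± 0.30 SE in flox (adjusted p = 0.000274). Its mean in uninjured tissue was thus 3.28 times that in NEC in CKO and 4.46 times in flox. Without both control libraries numbered 3, the change was -1.36 ± 0.26 SE in CKO and -1.76 ± 0.26 SE in flox. The macrophage markers given above were mixed, with a lower sum in NEC that followed Csf1r and Cd68. Cd163, the hemoglobin scavenger receptor of macrophages, went the other way from Hmox1, with a mean of 1.01 FPKM in CKO NEC against 0.147 in CKO control and 1.59 in flox NEC against 0.289 in flox control. Cd163 passed the filter on low values through the NEC libraries alone. The part of the macrophage markers in the fall of Hmox1 was not tested. The sum of 7 erythroid markers, which track blood and its heme, overlapped between conditions: 219 to 298 FPKM in CKO NEC, 181 to 358 in flox NEC, 172 to 315 in CKO control and 99.3 to 471 in flox control.

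Nqo1 (ENSMUSG00000003849, chr8:107388225-107403206, minus strand), the quinone reductase often read as a measure of NRF2 activity, stood at 42.7, 29.5 and 55.3 FPKM in CKO NEC libraries, against 9.25, 6.85 and 59.8 in CKO control libraries. It stood at 33.3, 40.1 and 35.6 FPKM in flox NEC libraries, against 14.6, 12.4 and 70.7 in flox control libraries. Library 3 of each control group lay above every NEC library, and the other 4 control libraries lay below every one. With all libraries, Nqo1 did not pass in CKO (1.31 ± 0.74 SE, adjusted p = 0.175) or in flox (0.59 ± 0.74 SE, adjusted p = 0.520). Without both control libraries numbered 3, the change was 2.23 ± 0.23 SE in CKO (adjusted p = 0.000248) and 1.37 ± 0.23 SE in flox (adjusted p = 0.00116). Those libraries were left out because of the levels of genes such as this, so the second pair of p-values is too small.

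Gclc (ENSMUSG00000032350, chr9:77754535-77794485, plus strand), the catalytic subunit of the rate-limiting enzyme of glutathione synthesis, had the same shape. It stood at 43.3, 64.3 and 68.2 FPKM in CKO NEC libraries, against 25.9, 27.1 and 93.2 in CKO control libraries. It stood at 43.4, 70.2 and 50.0 FPKM in flox NEC libraries, against 35.3, 26.1 and 88.8 in flox control libraries. Library 3 of each control group exceeded every NEC library, and the other control libraries lay below every one. The change was 0.50 ± 0.51 SE in CKO (adjusted p = 0.453) and 0.29 ± 0.51 SE in flox (adjusted p = 0.651), against 1.09 (adjusted p = 0.00776) and 0.80 (adjusted p = 0.0219) without both control libraries numbered 3.

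Srxn1 (ENSMUSG00000032802, chr2:152105516-152111376, plus strand), the sulfiredoxin that restores overoxidized peroxiredoxins and the member with ARE letters before its start, was the most abundant of the 10 per length. It stood at 96.4, 121 and 179 FPKM in CKO NEC libraries, against 150, 157 and 252 in CKO control libraries. It stood at 105, 130 and 115 FPKM in flox NEC libraries, against 121, 112 and 274 in flox control libraries. The groups overlapped in both genotypes, and neither change passed (-0.50 ± 0.34 SE in CKO, adjusted p = 0.257; -0.41 ± 0.34 SE in flox, adjusted p = 0.331). Without both control libraries numbered 3, the change was -0.26 ± 0.23 SE in CKO and 0.00082 in flox. Sod2 (ENSMUSG00000006818, chr17:13006846-13040063, plus strand), the mitochondrial superoxide dismutase, was the steadiest member, at 6.46, 6.01 and 5.84 FPKM in CKO NEC libraries, against 6.40, 5.86 and 6.88 in CKO control libraries. It stood at 5.82, 5.58 and 5.12 FPKM in flox NEC libraries, against 6.79, 6.81 and 7.96 in flox control libraries. It fell in flox by 0.33 ± 0.098 SE (adjusted p = 0.0143), with no overlap, and gave -0.054 ± 0.098 SE in CKO (adjusted p = 0.680). The flox call was lost on the deposited scale (-0.19, adjusted p = 0.117) and without flox NEC library 3 or flox control library 3, and the CKO value was 0.071 on the deposited scale.

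Counted together, 5 of the 9 tested members changed in CKO (4 rose and 1 fell), where 43% of 14678 genes passed, 20.1% higher and 22.9% lower. In flox 6 of the 9 changed (4 rose and 2 fell), where 53.5% of genes passed, 27.1% higher and 26.4% lower. Separation of the groups was also common, at 51.7% of genes in CKO (24.5% higher, 27.2% lower) and 63% in flox (32.1% higher, 30.8% lower). These counts are therefore close to the background, and 3 of the 4 genes that rose in each genotype entered the test through the NEC libraries alone. Without both control libraries numbered 3, 7 of 9 members changed in each genotype, where 39.9% of 14386 genes passed in CKO and 53.5% in flox. In absolute terms the oxidant makers stayed low: their 4 levels summed to 3.59 to 7.62 FPKM in CKO NEC, 4.49 to 5.32 in flox NEC, 0.528 to 0.779 in CKO control and 0.813 to 1.23 in flox control. The 6 defence genes summed to 238 to 353 FPKM in CKO NEC, 219 to 287 in flox NEC, 222 to 482 in CKO control and 187 to 500 in flox control.

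**Figure D2:**
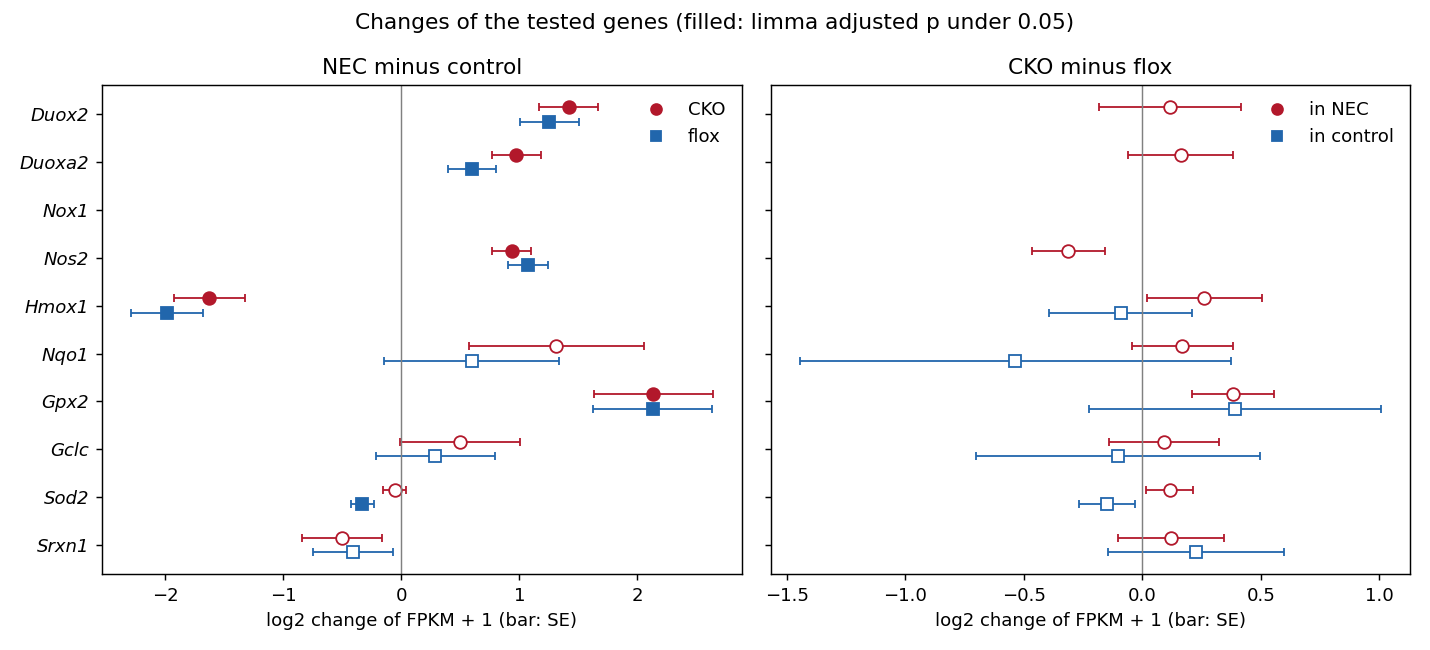
Log2 change of FPKM + 1 for NEC minus control in each genotype (left, joint scale) and for CKO minus flox in each condition (right, deposited FPKM), with SE bars and filled symbols where the limma adjusted p was under 0.05. Nox1 and, in control tissue, Duox2, Duoxa2 and Nos2 failed the filter and have no point. Filled symbols are seen in the left panel only, with Gpx2 farthest right at 2.13 in both genotypes and Hmox1 farthest left.

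The 2 control libraries numbered 3 held the 2 highest of the 6 control values for 6 of the 9 tested members: Hmox1, Nqo1, Gpx2, Gclc, Sod2 and Srxn1, which are all the defence genes and none of the oxidant makers. Over all 14678 genes tested, 11.1% had those libraries highest. Library 3 stood at 7.43 times the mean of the other 2 libraries for Nqo1 in CKO control and at 5.25 times in flox control. For Gpx2 the ratio was 5.36 in CKO control and 2.42 in flox control, and for Gclc 3.51 and 2.89. Hmox1 gave 1.78 in CKO and 1.63 in flox, Srxn1 1.64 and 2.35, and Sod2 only 1.12 and 1.17. The pattern was uneven over the groups of the wider system, and a difference between those groups was not tested. Of the other pathway genes tested, those libraries were highest for 8 of 10 genes of glutathione supply, 10 of 16 other NRF2 targets, 6 of 15 enzymes of superoxide and peroxide removal and 4 of 11 thioredoxin genes, but for 0 of 15 oxidant sources and 0 of 9 NRF2 regulators. Gclm, the regulatory partner of Gclc, stood at 75.2 FPKM in CKO control library 3, against 40.3 and 41.0 in CKO control libraries 1 and 2, and at 67.3 in flox control library 3, against 39.4 and 38.0. Nfe2l2 itself stood at 32.5 FPKM against 29.2 and 30.2, and at 29.9 against 19.9 and 22.4. What sets these libraries apart is not given in the labels, and their 12 epithelial markers were in part high too (both libraries highest for 4 of 12). The epithelial sum was highest in CKO control library 3 (7724 FPKM) but the middle value of its group in flox control library 3 (5693 FPKM).

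**Figure D3:**
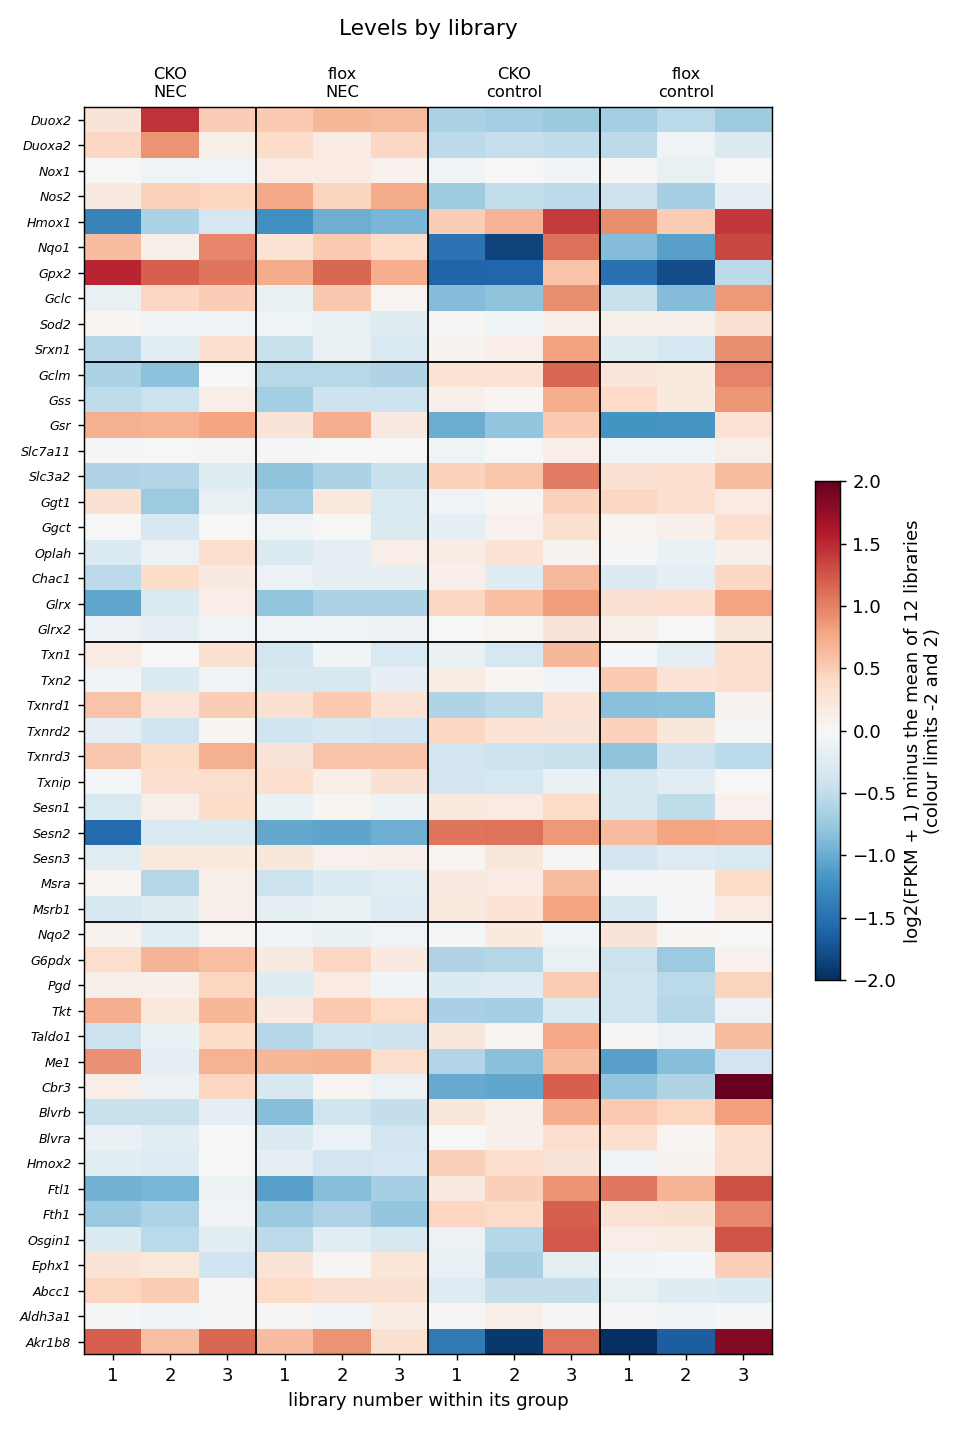
Level of the 10 genes and of the genes of glutathione supply, the thioredoxin system and other NRF2 targets (blocks from top to bottom) in each library, as log2(FPKM + 1) minus the gene's mean over 12 libraries, red above and blue below that mean. The columns of library 3 in both control groups are redder than libraries 1 and 2 for Nqo1, Gclc, Gclm and Akr1b8, while Duox2, Duoxa2 and Nos2 part NEC from control with no such column.

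The knockout was compared with flox within each condition on deposited FPKM. In NEC tissue none of the 9 tested members passed, and neither did any of the 13673 genes (0%), with 599 genes at an unadjusted p under 0.05 and a count of 0 by limma-voom on the recovered reads. Gpx2 averaged 38.6 ± 6.96 FPKM in CKO NEC and 29.3 ± 5.17 in flox NEC (SD, n = 3), above the flox mean in 3 of 3 libraries, with a log2 change of 0.38 ± 0.17 SE (adjusted p = 0.840). Nos2 averaged 1.47 ± 0.266 FPKM in CKO NEC and 2.07 ± 0.384 in flox NEC, below the flox mean in 3 of 3 libraries, at -0.31 ± 0.15 SE (adjusted p = 0.840). Both pairs of ranges overlapped, and neither difference was told from the spread between libraries. Duox2 gave 0.12 ± 0.30 SE (adjusted p = 0.942), a sign set by a single library, since without CKO NEC library 2 the value was -0.25. On deposited FPKM Nox1 was the only one of the 10 genes with separate ranges between genotypes in NEC, a separation that 11% of tested genes showed (4.83% higher and 6.14% lower in CKO). On the joint scale Sod2 was also separate, by a narrow gap (lowest CKO NEC value 5.84, highest flox NEC value 5.82). Nox1 averaged 0.0949 ± 0.0427 deposited FPKM in CKO NEC and 0.266 ± 0.0427 in flox NEC, with a change of -0.21 ± 0.057 SE when the filter was off (adjusted p = 0.845).

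In control tissue 6 members could be tested and none passed, where 1 of 13300 genes did (0.00752%, with 3849 at an unadjusted p under 0.05). Duox2, Duoxa2, Nox1 and Nos2 were under the filter. The spread within groups was wide where library 3 stood apart: Nqo1 averaged 24.7 ± 29.1 FPKM in CKO control and 31.8 ± 32.3 in flox control, with a log2 change of -0.54 ± 0.91 SE (adjusted p = 0.730). Without both control libraries numbered 3 that change was -0.68 ± 0.17 SE (adjusted p = 0.0599) and that of Srxn1 was 0.40 ± 0.11 SE (adjusted p = 0.0698). All 6 ranges overlapped between genotypes, while 34.5% of tested genes had ranges that did not. Exact permutation of 3 against 3 libraries cannot give a two-sided p below 0.1, so no single member could be tested that way.

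Whether NEC changed a member by a different amount in CKO than in flox was tested as an interaction, and 0 of 9 tested members passed against 0.77% of 14678 genes (0.143% with a positive and 0.627% with a negative difference). Sod2, called in flox and not in CKO, gave a difference of changes of 0.28 ± 0.14 SE (adjusted p = 0.286). Duoxa2 gave 0.38 ± 0.29 SE (adjusted p = 0.50) and Duox2 0.16 ± 0.35 SE (adjusted p = 0.837), so the larger ratios in CKO were within the error. Nqo1 gave 0.72 ± 1.05 SE (adjusted p = 0.745), an error wide enough to hide a large difference.

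Genes of the wider oxidant and antioxidant system changed in both directions in NEC, with more that fell than rose. Of 84 genes listed in 6 groups, 76 were tested. In CKO 10 rose and 25 fell, with a median log2 change of -0.20 against -0.013 over all genes tested, of which 20.1% rose and 22.9% fell. In flox 15 rose and 26 fell, with a median of -0.29 against 0.00014 over all genes tested, of which 27.1% rose and 26.4% fell. The split depended on scale: on deposited FPKM, which places NEC values on average 0.151 log2 units higher relative to control, 12 rose and 23 fell in CKO (26.4% and 17.2% of all genes) and 19 rose and 22 fell in flox (33.6% and 21.3% of all genes). Without both control libraries numbered 3, 16 rose and 23 fell in CKO (18.9% and 21% of all genes) and 22 rose and 25 fell in flox (27.6% and 25.9% of all genes).

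Among 15 tested oxidant sources, 2 rose and 5 fell in CKO and 2 rose and 4 fell in flox. Nox4, an oxidase that makes hydrogen peroxide without an activating signal, averaged 0.642 ± 0.526 FPKM in CKO NEC against 9.41 ± 1.24 in CKO control, and 0.478 ± 0.0626 in flox NEC against 7.54 ± 3.06 in flox control (SD, n = 3). It fell by 2.70 ± 0.27 SE in CKO (adjusted p = 5.5e-05) and by 2.46 ± 0.27 SE in flox (adjusted p = 3.26e-05). Cyba, the small membrane subunit that Nox1, Nox4 and the phagocyte oxidase share, fell by 0.90 in CKO (adjusted p = 0.000829) and by 1.35 in flox (adjusted p = 3.44e-05). Cybb, the catalytic subunit of the phagocyte oxidase, stood at 0.915 to 1.62 FPKM in CKO NEC and 0.904 to 1.55 in CKO control, and at 1.53 to 1.75 in flox NEC and 0.418 to 1.43 in flox control, and passed in neither genotype (adjusted p of 0.861 and 0.118). Noxa1, the activator of Nox1, rose in CKO by 1.00 ± 0.26 SE (adjusted p = 0.00949) and gave 0.57 ± 0.26 SE in flox (adjusted p = 0.0839). Duox1, the other dual oxidase, had group means of at most 0.0945 FPKM. The myeloperoxidase gene Mpo, a neutrophil product, was at 0 in 3 of the 4 groups, and the sum of 11 neutrophil markers was 6.82 to 13.3 FPKM in CKO NEC, 13.8 to 16.1 in flox NEC, 10.3 to 17.8 in CKO control and 8.34 to 15.2 in flox control. That sum followed Mmp9 and Ltf, and only 4 of the 11 markers were tested: 0 rose and 1 fell in CKO (Ltf), while 2 rose (Mmp9 and Retnlg) and 2 fell (Ltf and Camp) in flox. Retnlg stood at 0, 0.395 and 0.784 FPKM in CKO NEC libraries and at 1.24, 1.29 and 2.0 in flox NEC libraries. It was at 0 in all 6 control libraries. Retnlg thus passed the filter through the flox NEC libraries alone, and Camp through control libraries alone. A difference between conditions was built into the testing of both.

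Of the 15 enzymes that remove superoxide and peroxide, 1 rose and 5 fell in CKO and 2 rose and 7 fell in flox. Gpx3, the secreted glutathione peroxidase, had the largest fall: it averaged 1713 ± 928.9 FPKM in CKO NEC against 11296 ± 3259 in CKO control, and 1138 ± 136 in flox NEC against 10789 ± 2414 in flox control. It fell by 2.86 ± 0.40 SE in CKO (adjusted p = 0.000354) and by 3.23 ± 0.40 SE in flox (adjusted p = 7.31e-05). Its family relative Gpx2 went the other way, and Gpx3 exceeded Gpx2 in FPKM in every group. Prdx5, a peroxiredoxin of mitochondria and peroxisomes, fell by 1.67 in CKO (adjusted p = 0.0002) and by 2.24 in flox (adjusted p = 1.46e-05). Prdx4, the peroxiredoxin of the endoplasmic reticulum, rose by 1.11 in CKO (adjusted p = 0.000111) and by 0.57 in flox (adjusted p = 0.00266).

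Glutathione supply and the thioredoxin system were mixed. Of 10 glutathione genes, 1 rose and 3 fell in CKO and 0 rose and 4 fell in flox. Gclm fell by 1.06 ± 0.29 SE in CKO (adjusted p = 0.0122) and by 1.05 ± 0.29 SE in flox (adjusted p = 0.00978), whereas its partner Gclc did not pass, and leaving out CKO NEC library 2 ended the CKO call (adjusted p = 0.0505). Slc3a2, the heavy chain of the cystine carrier, fell by 1.16 in CKO (adjusted p = 0.000584) and by 1.05 in flox (adjusted p = 0.000574). The light chain of that carrier, Slc7a11, had group means of at most 0.0904 FPKM and was not tested. Of 11 thioredoxin genes, 3 rose and 3 fell in CKO and 4 rose and 3 fell in flox. Txnrd3, a thioredoxin reductase, rose by 0.96 in CKO (adjusted p = 0.000355) and by 1.05 in flox (adjusted p = 8.83e-05), and Sesn2, a stress-induced sestrin, fell by 1.72 in CKO (adjusted p = 0.0006) and by 1.74 in flox (adjusted p = 0.000288). Txnrd1, the cytosolic reductase, rose by 0.71 in CKO (adjusted p = 0.0498) and by 0.90 in flox (adjusted p = 0.0148). The CKO call of Txnrd1 was lost under 13 of 20 alternative settings and its flox call under 3, with the lowest adjusted p without both control libraries numbered 3 (0.000623 in CKO).

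The regulators of NRF2 changed without a common direction. Nfe2l2 averaged 33.0 ± 4.41 FPKM in CKO NEC against 30.7 ± 1.68 in CKO control, and 29.9 ± 2.15 in flox NEC against 24.0 ± 5.21 in flox control, and did not pass (adjusted p of 0.642 in CKO and 0.0929 in flox). Keap1, which marks NRF2 for degradation, fell by 0.53 ± 0.11 SE in CKO (adjusted p = 0.00232) and by 0.33 ± 0.11 SE in flox (adjusted p = 0.0194, and 0.146 on deposited FPKM). Mafg, a small partner of NRF2 on DNA, fell by 1.00 in CKO (adjusted p = 0.000416) and by 1.15 in flox (adjusted p = 8.15e-05). Bach1, a repressor that competes with NRF2 and is known for holding Hmox1 off, rose by 1.01 ± 0.12 SE in flox (adjusted p = 4.96e-05) and gave 0.15 ± 0.12 SE in CKO (adjusted p = 0.330). Its levels were 43.3, 45.5 and 45.1 FPKM in flox NEC against 19.0, 22.7 and 23.6 in flox control, and 36.2, 38.7 and 46.1 in CKO NEC against 34.3, 37.3 and 36.8 in CKO control. All 3 CKO control libraries lay above the flox control libraries, a separation that 34.5% of genes showed, and the difference between genotypes in control did not pass (0.71 ± 0.12 SE, adjusted p = 0.0547). Bach1 was the only one of the 76 tested pathway genes with an interaction that passed (-0.86 ± 0.17 SE, adjusted p = 0.0484), a call lost under 12 of 21 alternative settings, with adjusted p up to 0.126. Of 16 other NRF2 targets, 3 rose and 4 fell in CKO and 4 rose and 5 fell in flox. Tkt, the transketolase of the pentose phosphate pathway, rose by 1.07 in CKO (adjusted p = 0.000801) and by 0.73 in flox (adjusted p = 0.00467). G6pdx, which makes NADPH in the first step of that pathway, rose by 0.99 in CKO (adjusted p = 0.00245) and by 0.62 in flox (adjusted p = 0.0206). Pgd and Taldo1 of the same pathway did not pass in either genotype (0.22 and -0.41 in CKO, 0.12 and -0.64 in flox, adjusted p of 0.0550 to 0.737). Me1, the malic enzyme, rose by 1.34 in flox (adjusted p = 0.0102) and gave 0.75 in CKO (adjusted p = 0.125). The ferritin light chain Ftl1, which stores the iron that heme breakdown frees, fell by 1.17 in CKO (adjusted p = 0.00605, and 0.0533 with no filter) and by 1.87 in flox (adjusted p = 0.000222).

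**Figure D4:**
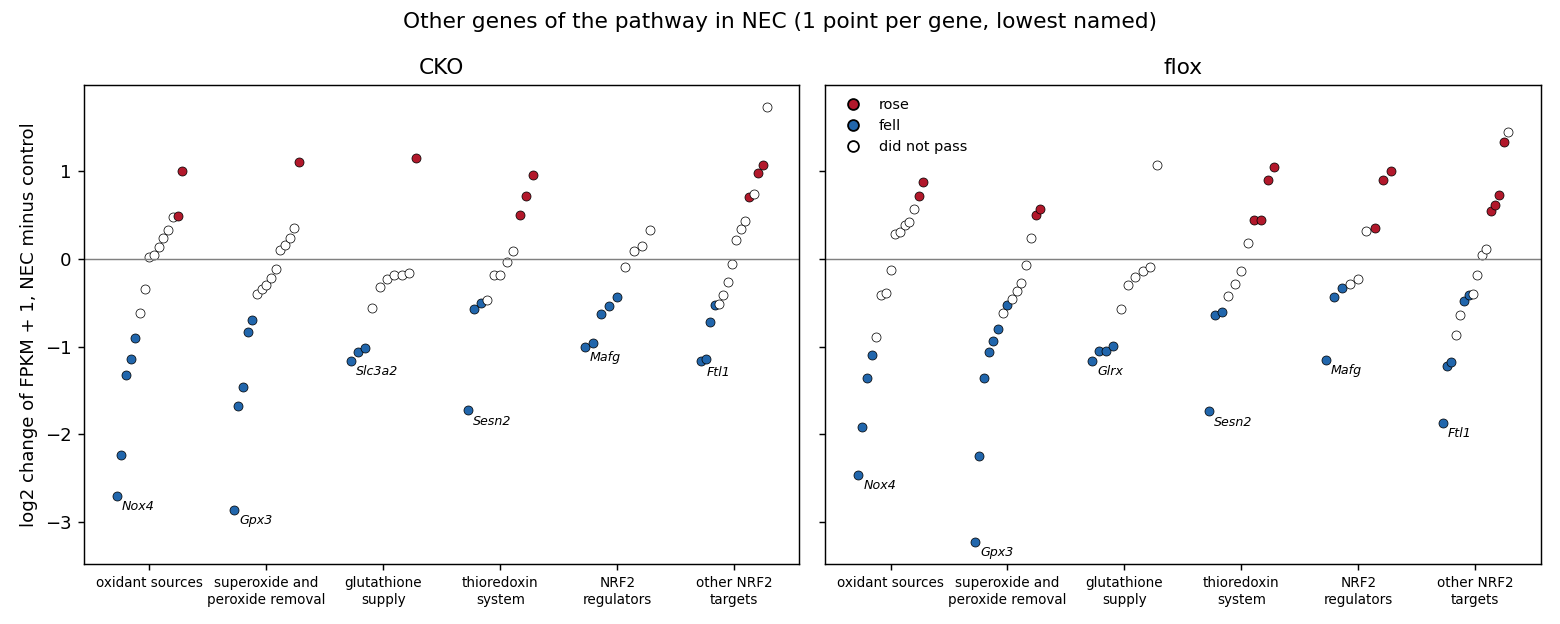
Log2 change of FPKM + 1, NEC minus control, for 76 tested genes of 6 groups in CKO (left) and flox (right), 1 point per gene, coloured where the limma adjusted p was under 0.05 and with the lowest gene of each group named. Gpx3 and Nox4 lie lowest in both genotypes, and red and blue points occur together in most groups.

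Markers of other tissue compartments were read beside these genes. The summed level of 10 stromal and muscle markers was 546 to 1585 FPKM in CKO NEC against 183 to 579 in CKO control, which overlapped, and 1317 to 2112 in flox NEC against 634 to 883 in flox control, which did not. Of these 10 markers, 6 rose and 0 fell in CKO, and 5 rose and 1 fell in flox. The sum of 12 epithelial markers was 4305 to 6046 FPKM in CKO NEC against 5995 to 7724 in CKO control, and 4363 to 5536 in flox NEC against 5295 to 6326 in flox control, and the ranges overlapped in both genotypes. Epithelial markers went both ways, with 2 risen and 3 fallen in CKO and 3 risen and 4 fallen in flox. Krt19, a keratin, averaged 442.9 FPKM in CKO NEC against 92.7 in CKO control and 404 in flox NEC against 105 in flox control. Alpi, the alkaline phosphatase of mature enterocytes, averaged 546 FPKM in CKO NEC against 1657 in CKO control and 468 in flox NEC against 1377 in flox control. Krt19 rose and Alpi fell in both genotypes. The part of these markers in the changes of the 10 genes was not tested.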

How the data were processed

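Total RNA of mouse small intestine was extracted with Trizol and made into libraries with the NEBNext Ultra II kit, per the labels' protocols. The authors deposited FPKM per gene in 2 tables, NEC and control, with 6 libraries each. The sources used here do not give aligner, counter, build or strand setting. The coordinates of 98.3% of matched genes equalled those of a GRCm38 annotation. Deposited FPKM were whole multiples of 1 read per gene within a tolerance of 0.05, and the recovered reads (reads or fragments, which is not stated) were rescaled by median-of-ratios factors over 12 libraries to put both tables on a joint scale. The genotype comparisons used deposited FPKM within a table. NEC against control and the interaction used the joint scale in 1 fit, which the separate scaling of the tables required. Values were log2(FPKM + 1), and genes with at least 1 FPKM in at least 3 libraries were fitted with limma 3.58.1 (R 4.3.3, trended variance), with Benjamini-Hochberg adjustment over all genes tested and a threshold of 0.05. The count test on recovered reads was limma-voom, since edgeR was not run on FPKM. Tests were checked on simulated libraries. These held no library set apart as the control libraries numbered 3 are, so the check does not cover that case. Alternatives were a pseudocount of 0.1, no filter, a mean of at least 5 FPKM, equal library medians, deposited FPKM, limma-voom, a replicate block and leaving out each library. Leaving out both control libraries numbered 3 and a block within each condition were added after seeing the data. The members and lists were chosen with earlier results of these data known. Besides the 10 members, up to 2 passing genes per list and direction with the smallest p are named in each comparison, and Nfe2l2, Keap1, Gclm, Txnrd1, Cybb and Duox1 may always be named.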

Additional observations from a re-analysis of the deposited data

How the results depend on the processing

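Leaving out both control libraries numbered 3 was chosen after seeing the data because members stood highest there, so its p-values are too small. Duox2, Nos2, Gpx2 and Hmox1 differed between NEC and control in the same direction under all alternatives that fitted them, in both genotypes. For Duox2 and Nos2 only NEC libraries reached 1 FPKM. Wherever that filter applied, a difference between conditions was thus built into their being tested. A mean of at least 5 FPKM leaves out low genes, so 6 members were tested in place of 9. The members called fell to 2 of 6 in CKO and 3 of 6 in flox. Of all 7659 genes tested at this setting, 3904 passed in CKO (51.0%) and 4779 in flox (62.4%). The main fit gave 6306 and 7854 of 14678 genes (43.0% and 53.5%), so fewer genes passed but a larger share of those tested. Leaving out 1 library gave 5 to 6 members in CKO (33.5% to 44.9% of all genes passed) and 4 to 6 in flox (46.3% to 54.8%). On deposited FPKM the flox split was 4972 genes higher and 3148 lower (main 3974 and 3880) and the CKO split 3907 and 2543 (main 2949 and 3357).

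Between genotypes in control, 1 gene passed; 0 did with no filter, 760 with a mean of at least 5 FPKM, 2 by limma-voom, 0 to 830 without 1 library (830 without flox control library 3) and 1345 without both libraries numbered 3. In NEC, 0 passed, and 0 to 1 without 1 library. The interaction gave 113 genes, but 6 with no filter, 354 with a mean of at least 5 FPKM, 39 with equal medians, 181 on deposited FPKM, 0 to 529 without 1 library and 507 without both libraries numbered 3. The cause was not tested.

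Same-numbered libraries do not pair by the labels. Over genes, r of their deviations from the group mean ran between -0.136 and 0.182 for NEC, and between -0.0301 and 0.366 for control. Differently numbered libraries of the 2 genotypes gave -0.288 to 0.213 for NEC and -0.322 to 0.277 for control. The value of 0.366, the highest in control, was that of the libraries numbered 3. With a replicate block 903 genes passed between genotypes in control, and with a block within each condition 0 passed in the interaction, with 0 members in either.

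Reversed values without a test passed were 0.00082 for Srxn1 in flox without the libraries numbered 3, 0.071 for Sod2 in CKO on deposited FPKM, and, in the interaction, 0.0058 (pseudocount of 0.1) and 0.14 (limma-voom) for Nos2 and -0.015 (pseudocount of 0.1) and -0.0078 (deposited FPKM) for Gpx2. Leaving out 1 library gave, for CKO against flox in NEC, -0.25 to 0.36 for Duox2, -0.059 to 0.35 for Duoxa2, -0.031 to 0.40 for Nqo1, -0.053 to 0.29 for Gclc and -0.11 to 0.32 for Srxn1. In control it gave -0.36 to 0.14 for Hmox1, -1.45 to 0.23 for Nqo1, -0.33 to 0.76 for Gpx2, -0.69 to 0.40 for Gclc and -0.0095 to 0.63 for Srxn1. For NEC in flox it gave -0.069 to 0.80 for Gclc and -0.64 to 0.00082 for Srxn1. In the interaction it gave -0.20 to 0.40 for Duox2, -0.053 to 1.64 for Nqo1, -0.36 to 0.73 for Gpx2, -0.30 to 0.80 for Gclc and -0.50 to 0.15 for Srxn1.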

Other observations

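Genes that mark position along the small intestine, chosen after their values were seen, differed between NEC and control in most libraries and also set some libraries apart. Fabp6, the bile acid binding protein of the ileum, stood at 172, 137 and 274 FPKM in CKO NEC libraries, against 17.4, 31.7 and 59.8 in CKO control libraries. It stood at 331, 206 and 171 FPKM in flox NEC libraries, against 46.0, 29.0 and 500.1 in flox control libraries. Slc10a2, the ileal bile acid carrier, stood at 6.15, 19.6 and 13.2 FPKM in CKO NEC libraries, against 0.181, 0.393 and 1.33 in CKO control libraries. It stood at 15.1, 20.8 and 19.4 FPKM in flox NEC libraries, against 0.0489, 0.0668 and 6.72 in flox control libraries. Library 3 was the highest of each control group for both genes. Every NEC library lay above all controls of its genotype for both genes, apart from Fabp6 in flox control library 3, which exceeded every flox NEC library.

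Gata4, a factor of the proximal small intestine, stood at 13.6, 0.315 and 0.901 FPKM in CKO NEC libraries, against 9.46, 8.52 and 14.8 in CKO control libraries. It stood at 2.41, 4.40 and 0.558 FPKM in flox NEC libraries, against 11, 15.1 and 0.945 in flox control libraries. CKO NEC library 1 was high among NEC libraries, and flox control library 3 low among controls. The part of these differences in the values of the 10 genes was not tested.

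Reg3g, an antimicrobial lectin of the epithelium, stood at 11.3, 268 and 25.6 FPKM in CKO NEC libraries, against 1.29, 1.58 and 3.62 in CKO control libraries. It stood at 14.4, 21.3 and 56.0 FPKM in flox NEC libraries, against 0.960, 1.97 and 16.4 in flox control libraries. CKO NEC library 2 held its highest value, as it did for Duox2 and Duoxa2.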
